A study of Mus musculus with 7 samples.

Results

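The genes described here are 45 heat shock proteins, chaperones and co-chaperones, followed in natural killer (NK) cells of mouse spleen. They were chosen by name from a list of mouse gene symbols, and every one was found among the 53379 genes of the deposited count table: 30 act mainly in the cytosol and nucleus, 5 in mitochondria and 10 in the endoplasmic reticulum (ER). The study sorted viable CD45+ CD3- NK1.1+ NKp46+ CD49b+ cells straight from the spleen of C57BL/6 mice, with no treatment named. It compared 4 libraries labelled as a knockout of the homeobox transcription factor Hhex (Hhex KO) with 3 libraries from a Cre control, which by its name carries a Cre recombinase. The sources used here give neither the driver of the Cre nor the exact alleles, nor the age and sex of the mice. The design text calls the libraries biological replicates without naming animals, so the spread on which each p-value rests may be technical in part.

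Chaperones help other proteins to fold. Hsp70 proteins bind unfolded stretches in cycles driven by ATP, J proteins (the Dnaj genes) bring them clients, and Hsp110 proteins and other exchange factors release the nucleotide. Hsp90 proteins take over many signalling proteins for late folding steps, helped by co-chaperones, and the TRiC ring folds actin and tubulin within its cavity. In the cytosol the transcription factor HSF1 raises many of these genes under heat or proteotoxic stress, whereas in the ER the unfolded protein response (UPR), through IRE1 with XBP1, ATF6 and PERK with ATF4, raises the ER set. NK cells load their granules with secreted killer proteins, all of which fold in the ER.

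The 7 libraries held between 10589915 and 18456404 counts each. Levels are given in CPM, counts-per-million values of the scaled library. Differences are log2 fold changes of Hhex KO over Cre control ± SE; their p-values, unless another tool is named, come from the quasi-likelihood test of edgeR, adjusted by the Benjamini-Hochberg method over 12161 genes. Hhex itself went from 93.5 to 96.1 CPM down to 54.2 to 64.8 CPM (-0.70 ± 0.10, adjusted p = 0.00768), so a fold of 0.614 of its signal remained; counts over the whole gene do not tell which part the reads cover. Bcl2l11, the gene of the BIM protein in the series title, had a value of 0.92 ± 0.15 (adjusted p = 0.0123). Leaving out Cre control replicate 1 ended both calls (0.0516 and 0.0793), and leaving out replicate 2 or 3 that of Bcl2l11 (0.0635 and 0.0532). All 12 NK markers checked were tested, with Ncr1 (NKp46) at 791 to 1004 CPM in the Hhex KO libraries. Their summed level was 20697 to 25548 CPM in the controls against 16685 to 22341 CPM, and 0 of 12 passed the test. The 10 T cell markers summed to 274 to 323 CPM in the controls against 390 to 455 CPM, with Trbc2 called higher, and the 9 B cell markers to 215 to 261 CPM against 246 to 407 CPM, with Cd79b called higher; leaving out any Cre control library ended the calls of Trbc2 and Cd79b (adjusted p between 0.106 and 0.171). Of the T and B cell markers, 7 of 10 and 4 of 9 passed the filter on low counts and were tested. Of the 6 plasma cell, 11 myeloid and 7 erythroid markers listed, 3, 8 and 6 were tested. Among these 0 were called, against 2.68% of all genes tested called higher and 1.87% lower. With so few genes tested, a count of 0 cannot show that the groups were alike in these cells. The myeloid markers summed to 732 to 1148 CPM in the controls and to 1061, 1523, 1115 and 874 CPM in Hhex KO replicates 1 to 4, the plasma cell markers to 159 to 176 CPM against 216, 205, 132 and 129 CPM, and the erythroid markers to 4.65 to 26.98 CPM against 25.8, 49.5, 3.59 and 1.95 CPM; no marker of any list was at 0 in all 7 libraries. In bulk RNA, fewer cells of a type and less RNA per cell cannot be told apart. The Hhex KO libraries fell into pairs: the chi-square per degree of freedom of their counts was 10.4 between replicates 2 and 3 and 25.9 between replicates 1 and 4, but 62.8 to 71.5 across these pairs, against 14.4 to 16.1 among the Cre control libraries. Replicate 4 carries the sample number 95, the other libraries 20 to 28.

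With edgeR, Dnajb4 of the cytosol and Dnajb9 of the ER, both J proteins, were the chaperone genes called lower in Hhex KO, and 0 were called higher. All 45 genes passed the filter on low counts, and 43 did not pass an adjusted p of 0.05. At an unadjusted p below 0.05 there were 4 higher and 2 lower members. Of all genes tested, 2.68% were called higher and 1.87% lower, and 18.5% had an unadjusted p below 0.05 in either direction, against 13.3% of the members. The median log2 fold change was 0.17 over the members and 0.02 over all genes tested. A positive value was held by 31 members (68.9%) and by 52.7% of all genes tested, and a negative one by 14 members. By compartment the median was 0.26 for the cytosolic, 0.38 for the mitochondrial and -0.03 for the ER genes, with 23 of 30, 5 of 5 and 3 of 10 positive. DESeq2 called 1 member higher (5.14% of all genes) and the same 2 lower (3.86%). With limma-voom and sample quality weights 17 members were called higher (12.6% of all genes) and the same 2 lower (10.9%). These weights were 2.00 and 1.68 for Hhex KO replicates 2 and 3 but 0.342 and 0.262 for replicates 1 and 4. The Hhex KO side of that fit thus rests mostly on replicates 2 and 3. In CPM the groups did not overlap for Trap1, higher, and for Dnajb4 and Dnajb9, lower, against 9.37% and 9.98% of all genes.

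**Figure D1:**
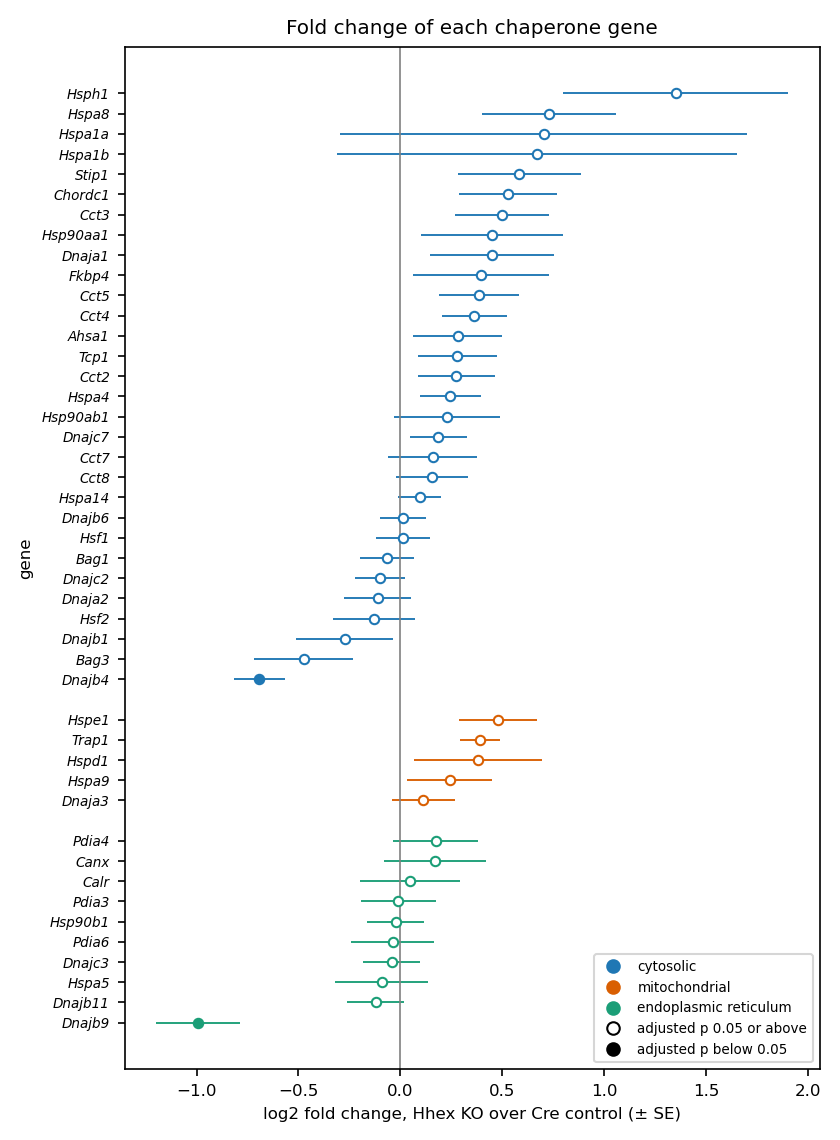
Log2 fold change of each gene, Hhex KO over Cre control (x axis, points with bars of ± 1 SE from edgeR, n = 4 and n = 3), for the 45 genes (y axis) grouped and coloured by compartment. Filled points passed an adjusted p of 0.05: only Dnajb4 (-0.69) and Dnajb9 (-0.99) did, while Hsph1 had the highest value, 1.35, with a wide bar.

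For most of these genes the Hhex KO libraries lay further apart than the controls. The standard deviation (SD) of log2(CPM + 0.5) between libraries had a median of 0.38 over the members in Hhex KO and 0.11 in Cre control, against 0.26 and 0.15 over all genes tested. It was larger in Hhex KO for 43 of 45 members (95.6%), and for 79.6% of all genes. The 2 exceptions were Trap1 and Dnajb6. The range of the 4 Hhex KO libraries held the whole Cre control range on both sides for 29 members (64.4%) and for 38.6% of all genes. These SDs rest on 4 and 3 libraries and were not tested against each other.

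**Figure D2:**
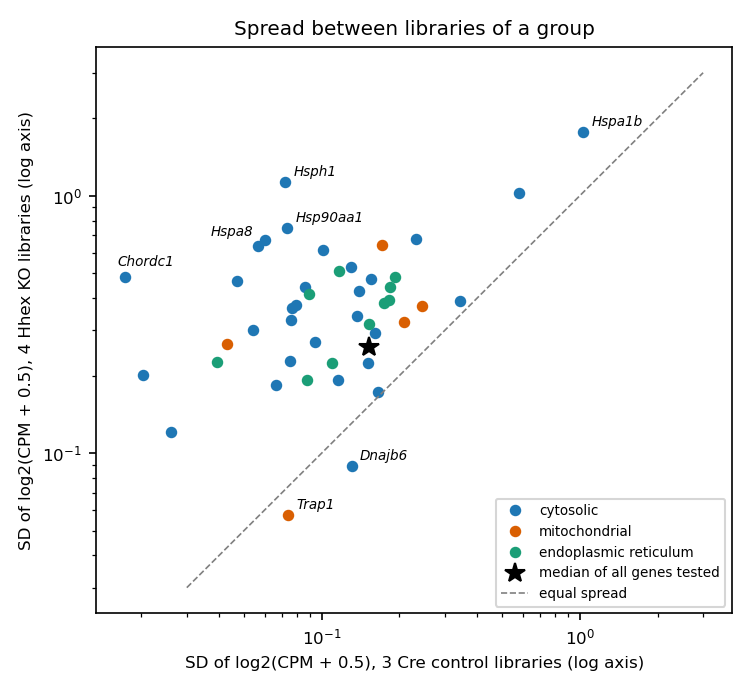
SD of log2(CPM + 0.5) between the 3 Cre control libraries (x axis) and the 4 Hhex KO libraries (y axis), both on log axes, with a point for each of the 45 genes coloured by compartment and a star at the median of all genes tested (0.15 and 0.26). All points but Trap1 and Dnajb6 lie above the dashed line of equal spread, and Hsph1 and Chordc1 lie far above it.

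In 30 of the 45 members the highest of all 7 libraries was Hhex KO replicate 2, and in 29 the lowest was Hhex KO replicate 4. Of all 12161 genes tested, replicate 2 was the highest for 1705 and replicate 4 the lowest for 2749. Replicate 2 lay above every Cre control library for 36 members, replicate 3 for 30, replicate 1 for 13 and replicate 4 for 6. Over all 12161 genes tested these counts were 4543, 4649, 4091 and 4472, in the same order. Replicate 4 lay below every Cre control library for 31 members and replicate 1 for 15, against 4383 and 4328 of all 12161 genes. Replicates 2 and 3 were both above replicates 1 and 4 for 33 members (73.3%), and for 36.4% of all genes tested. Replicate 2 was also the highest of the 7 libraries for 6 of 8 tested myeloid and 6 of 6 tested erythroid markers, and replicate 4 the lowest for 5 of each; the part of other cells in the chaperone values was not tested.

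**Figure D3:**
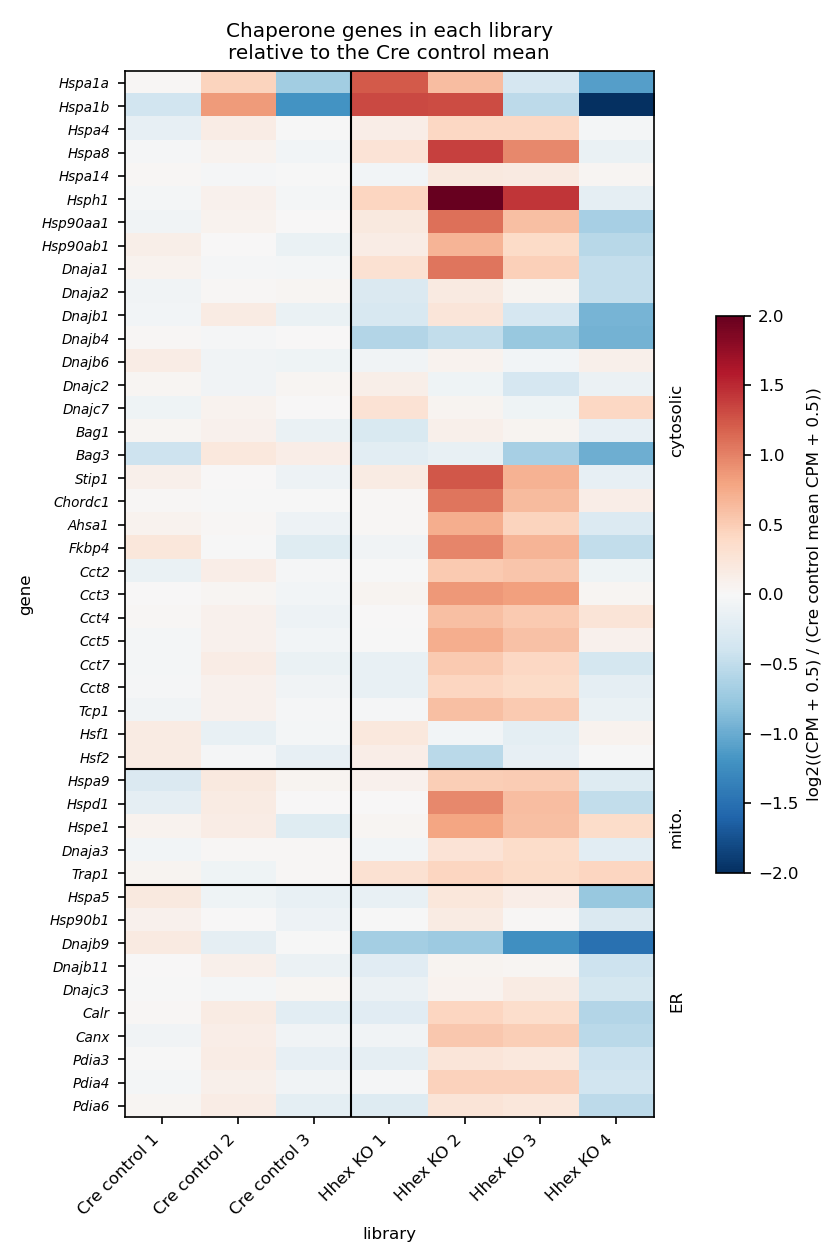
Level of each of the 45 genes (rows, in blocks for the cytosol, mitochondria and ER) in each of the 7 libraries (columns), coloured by log2 of CPM + 0.5 over the Cre control mean + 0.5, from -2 (blue) to 2 (red). The Cre control columns are pale for most rows, but not for Hspa1a and Hspa1b. Most rows are red in Hhex KO replicates 2 and 3 and many are blue in replicate 4, while Dnajb4 and Dnajb9 are blue in all 4 Hhex KO columns.

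Among the cytosolic Hsp70 genes, the constitutive Hspa8 (Hsc70; ENSMUSG00000015656.17, chromosome 9, 40800984 to 40810087) was far more abundant than the inducible copies. It was at 763, 811 and 749 CPM in Cre control and at 932, 2000, 1504 and 708 CPM in Hhex KO replicates 1 to 4. The Cre control libraries lay close together, Hhex KO replicates 1, 2 and 3 lay above them and replicate 4 below. The log2 fold change was 0.73 ± 0.33 (adjusted p = 0.283). Per kilobase of summed exon length, Hspa8 stood at 180 CPM in Cre control, and Hspa1a and Hspa1b, the stress-induced Hsp70 genes, at 0.194 and 1.07.

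Hspa1b (ENSMUSG00000090877.3, chromosome 17, 34956436 to 34959238) had 29, 66 and 19 counts in Cre control and 128, 142, 33 and 2 counts in Hhex KO, or 2.17, 5.81 and 1.03 CPM against 8.29, 8.13, 1.94 and 0.177 CPM. Its near-identical neighbour Hspa1a (ENSMUSG00000091971.3, chromosome 17, 34969190 to 34972156) had 8, 11 and 3 counts against 31, 20, 6 and 0; the count of 0 allows up to 0.266 CPM in that library (counting error only). Both genes were highest in Hhex KO replicates 1 and 2 and lowest in replicate 4, and the groups overlapped. The log2 fold changes were 0.70 ± 1.00 for Hspa1a and 0.67 ± 0.98 for Hspa1b (adjusted p = 0.803 and 0.810). Of the 75-base windows of Hspa1a transcripts, the length of a read, 54.2% also occur in transcripts of other genes, chiefly Hspa1b, so these counts are uncertain. Hspa14, a Hsp70 relative that works at the ribosome, ranged from 70.8 to 73.4 CPM in the controls and from 69.2 to 82.9 CPM in Hhex KO.

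Hsph1 (Hsp105; ENSMUSG00000029657.15, chromosome 5, 149614287 to 149636376), a Hsp110 exchange factor for Hsp70, had the highest fold change and the widest spread of the well-expressed members. It was at 63.8, 69.6 and 63.8 CPM in Cre control and at 88.8, 345, 178 and 57.8 CPM in Hhex KO replicates 1 to 4. Replicate 2 was thus several times above every control, and replicate 4 was below them. The log2 fold change was 1.35 ± 0.55 (unadjusted p = 0.0393, adjusted p = 0.240), and limma-voom with sample quality weights gave 1.70 (adjusted p = 0.0105). Within Hhex KO, those weights were highest for replicates 2 and 3. Hspa4, also of the Hsp110 group, ranged from 153 to 189 CPM in the controls and from 167 to 229 CPM in Hhex KO (0.25 ± 0.15). The RefSeq promoter of Hsph1 is shown because this gene had the highest fold change. A 2-unit heat shock element, a short form of the HSF1 motif, occurred in 14.5% of all genes. The 250 bases before a RefSeq start (GRCm38.p6, chr5:149636316-149636565, minus strand, 5′ to 3′) hold its letters in capitals at -54 to -47:
Hsph1: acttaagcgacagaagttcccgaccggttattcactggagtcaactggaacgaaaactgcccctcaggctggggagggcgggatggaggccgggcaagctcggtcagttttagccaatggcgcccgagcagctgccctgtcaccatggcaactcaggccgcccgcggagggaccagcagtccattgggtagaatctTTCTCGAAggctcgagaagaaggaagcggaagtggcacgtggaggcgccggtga

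The cytosolic Hsp90 genes were likewise highest in Hhex KO replicates 2 and 3 and lowest in replicate 4. Hsp90ab1, the constitutive form, had the highest level per kilobase of all members, 419 CPM per kilobase in Cre control. It was at 1367, 1260 and 1142 CPM in Cre control and 1391, 2009, 1640 and 852 CPM in Hhex KO. Hsp90aa1 (ENSMUSG00000021270.13, chromosome 12, 110690605 to 110702728), the stress-inducible form, was at 162, 179 and 171 CPM against 196, 368, 260 and 108 CPM. For both, Hhex KO replicates 1, 2 and 3 lay above every control and replicate 4 below, and their log2 fold changes, 0.23 ± 0.26 and 0.45 ± 0.35, were not past 0.05 (adjusted p = 0.733 and 0.571). Of the 75-base windows of Hsp90aa1, 42.8% also occur elsewhere, most often in the pseudogenes Gm12346, Gm5844 and Gm5511.

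The cytosolic J proteins differed in sign: 3 of 7 had positive fold changes, the median was -0.10, and 1 passed the test. Dnajb4 (ENSMUSG00000028035.13, chromosome 3, 152178511 to 152210302), a Hsp40 partner of cytosolic Hsp70, fell to 66.7 ± 9.14 CPM (SD, n = 4) from 108 ± 1.52 CPM (SD, n = 3). Its levels were 109, 106 and 108 CPM in Cre control and 71.7, 76.2, 63.4 and 55.5 CPM in Hhex KO replicates 1 to 4, so that the groups did not overlap, as for 9.98% of all genes in this direction. The log2 fold change was -0.69 ± 0.13 (adjusted p = 0.0195). The call was lost without any of the Cre control libraries (adjusted p = 0.0905, 0.0744 and 0.0896 without replicates 1, 2 and 3) and without Hhex KO replicate 3 (0.0554). Its direction was the same in each of these fits.

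Dnajb4 is shown with the promoter window of its inner RefSeq start because it is the called cytosolic gene. The 2-unit element marked in it occurred in 14.5% of all genes. The 250 bases (GRCm38.p6, chr3:152193846-152194095, minus strand, 5′ to 3′) carry a 2-unit heat shock element in capitals at -14 to -7, while the window of the outer start holds no such letters:
Dnajb4: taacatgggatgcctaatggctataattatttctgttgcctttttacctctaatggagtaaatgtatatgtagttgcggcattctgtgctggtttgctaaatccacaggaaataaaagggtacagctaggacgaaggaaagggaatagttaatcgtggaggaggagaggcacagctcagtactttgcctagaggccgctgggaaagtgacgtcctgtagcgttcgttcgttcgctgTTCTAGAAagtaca

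None of the other cytosolic J proteins passed the test. Dnajb1 (Hsp40, the main J partner of inducible Hsp70; chromosome 8, 83608193 to 83612653) was at 164, 193 and 157 CPM in Cre control and 138, 202, 136 and 90.2 CPM in Hhex KO, a log2 fold change of -0.27 ± 0.24 (adjusted p = 0.628). In Hhex KO replicate 2 it lay above the controls, and in the other 3 below. Dnaja1, a farnesylated J protein, ranged from 100 to 108 CPM in the controls and from 73.9 to 217 CPM in Hhex KO (0.45 ± 0.30). The values of Dnaja2, Dnajb6, Dnajc2 (a ribosome-bound J protein) and Dnajc7 lay between -0.11 and 0.19, with adjusted p of 0.554 and above.

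Co-chaperones of Hsp90 had 4 positive and 2 negative values among 6 genes when the BAG factors of Hsp70 are counted with them, and 0 passed the test. Stip1 (HOP), which links Hsp70 to Hsp90, was at 131, 123 and 114 CPM in Cre control and 137, 289, 198 and 109 CPM in Hhex KO (log2 fold change 0.58 ± 0.30, adjusted p = 0.360). Chordc1, a Hsp90-binding protein, was nearly equal in the controls, at 88.2, 86.2 and 86.6 CPM, and was at 88.1, 183, 136 and 95.2 CPM in Hhex KO (0.53 ± 0.24, adjusted p = 0.291). For Stip1 and Chordc1, Hhex KO replicates 2 and 3 stood well above all the other libraries. Ahsa1, an activator of the Hsp90 ATPase, and the immunophilin Fkbp4 had log2 fold changes of 0.28 ± 0.22 and 0.39 ± 0.33. The BAG exchange factors lay on the other side of 0: Bag3, a HSF1 target that couples Hsp70 to autophagy, at -0.47 ± 0.24 (adjusted p = 0.352) and Bag1 at -0.07 ± 0.13.

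All 7 TRiC subunits among the members had positive log2 fold changes, as did 52.7% of all genes tested. They ranged from 0.16 for Cct8 and Cct7 to 0.50 for Cct3 (median 0.28), but 0 passed the test. Cct4 (chromosome 11, 22990519 to 23003780) had the smallest unadjusted p of them. It was at 216, 225 and 198 CPM in Cre control and 213, 323, 306 and 255 CPM in Hhex KO, a log2 fold change of 0.36 ± 0.16 (unadjusted p = 0.0485, adjusted p = 0.266). The subunits kept the same order of libraries: in 7 of 7, Hhex KO replicates 2 and 3 were both above replicates 1 and 4. Cct5 was at 256, 279 and 253 CPM against 261, 437, 395 and 279 CPM, so its replicates 1 and 4 lay within the control range. Cct6a, a subunit outside the 45 genes, was at 152, 146 and 128 CPM against 133, 240, 220 and 152 CPM, with the same libraries high. With limma-voom and sample quality weights 5 of the 7 were called higher, against 12.6% of all genes. Within Hhex KO, that fit gave most weight to replicates 2 and 3.

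The regulators of the heat shock response did not pass the test. Hsf1 (chromosome 15, 76477422 to 76501913), the stress-activated factor of the heat shock response, was at 49.7, 39.5 and 43.0 CPM in Cre control and 51.0, 42.6, 38.3 and 46.1 CPM in Hhex KO. Hhex KO lay both above and below the controls, and the log2 fold change between groups was 0.01 ± 0.13 (adjusted p = 0.978), with a sign that turned under several alternatives. Hsf2, its relative, was low, between 9.02 and 11.4 CPM in the controls and between 6.82 and 11.2 CPM in Hhex KO (-0.13 ± 0.20). The mRNA of Hsf1 does not show its activity, which is set on the protein.

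**Figure D4:**
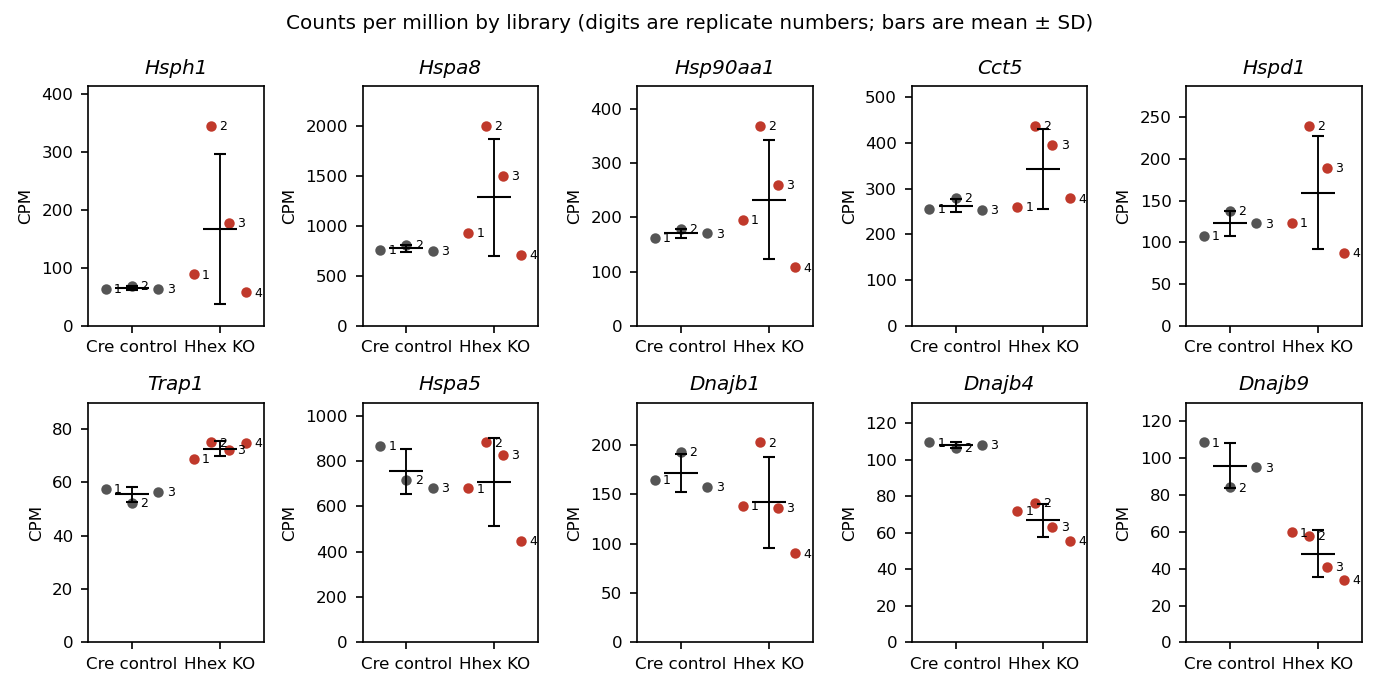
CPM (y axes, linear from 0) of 10 genes in the 3 Cre control (grey) and 4 Hhex KO (red) libraries, with digits for the replicate numbers and bars for mean ± SD. Hsph1, Hspa8, Hsp90aa1, Cct5 and Hspd1 are highest in Hhex KO replicates 2 and 3, and all of these but Cct5 lie below the controls in replicate 4, whereas Trap1 lies above, and Dnajb4 and Dnajb9 below, in all 4 Hhex KO libraries.

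All 5 mitochondrial chaperones had positive log2 fold changes, and with edgeR 0 passed the test; at an unadjusted p below 0.05 there were 2. Trap1 (ENSMUSG00000005981.11, chromosome 16, 4039971 to 4077827), the Hsp90 of mitochondria, came closest. It was at 57.6, 52.3 and 56.5 CPM in Cre control and 68.7, 74.9, 72.3 and 74.7 CPM in Hhex KO, so that the groups did not overlap, which held for 9.37% of all genes in this direction. Its 4 Hhex KO libraries lay close together. The log2 fold change was 0.39 ± 0.10 (adjusted p = 0.0626), and Trap1 was past 0.05 with DESeq2 (adjusted p = 0.00525) and with limma-voom and sample quality weights (0.00835).

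Hspd1 (Hsp60) and Hspe1 (Hsp10) form the folding chamber of the matrix, and their genes lie head to head on chromosome 1 (55077835 to 55088243 and 55088132 to 55091307). Hspe1 was at 34.7, 36.8 and 27.8 CPM in Cre control and 33.9, 57.3, 50.2 and 42.7 CPM in Hhex KO (log2 fold change 0.48 ± 0.19, unadjusted p = 0.0330, adjusted p = 0.218). Hspd1 was at 108, 137 and 123 CPM against 123, 239, 189 and 87.3 CPM (0.38 ± 0.31, adjusted p = 0.604). For both genes Hhex KO replicates 2 and 3 were the highest libraries, but in replicate 4 Hspe1 lay above every control and Hspd1 below. Of the 75-base windows, 29.6% of Hspd1 and 11.9% of Hspe1 also occur in other genes, such as the pseudogenes Hspd1-ps3 and Hspe1-ps2. Their shared promoter is shown because it holds the longest heat shock element found among the members. The 250 bases before the Hspe1 start (GRCm38.p6, chr1:55087898-55088147, plus strand, 5′ to 3′) carry in capitals 2 overlapping 3-unit elements at -89 to -72, which lie at -144 to -127 of a Hspd1 start read on the other strand:
Hspe1: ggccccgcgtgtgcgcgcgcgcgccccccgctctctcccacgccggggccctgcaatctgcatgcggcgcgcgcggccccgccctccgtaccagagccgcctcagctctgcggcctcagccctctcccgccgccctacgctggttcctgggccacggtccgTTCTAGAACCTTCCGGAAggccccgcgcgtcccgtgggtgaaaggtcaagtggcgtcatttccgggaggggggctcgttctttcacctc

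Hspa9 (mortalin, the mitochondrial Hsp70; chromosome 18, 34937414 to 34954357) was at 103, 144 and 130 CPM in Cre control and 133, 178, 178 and 104 CPM in Hhex KO, a log2 fold change of 0.24 ± 0.21 (adjusted p = 0.622). Dnaja3, its J partner, was at 35.4 to 37.4 CPM against 31.8 to 47.2 CPM (0.11 ± 0.15). In both genes Hhex KO replicates 2 and 3 were above the controls.

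Of the 10 ER chaperones, Dnajb9 fell and 9 did not pass the test, with log2 fold changes of the latter between -0.12 and 0.17. The most abundant stood, per kilobase in Cre control, at 244 CPM for Calr, 188 for Pdia3, 179 for Hspa5 and 157 for Hsp90b1. Dnajb9 (ERdj4; ENSMUSG00000014905.4, chromosome 12, 44205559 to 44210326), a J protein of BiP that the UPR induces through XBP1, fell to 48.1 ± 12.8 CPM (SD, n = 4) from 95.9 ± 12.2 CPM (SD, n = 3). It was at 109, 84.1 and 94.9 CPM in Cre control and 59.7, 58.0, 40.8 and 33.9 CPM in Hhex KO, and the groups did not overlap, again against 9.98% of all genes. The log2 fold change was -0.99 ± 0.21 (adjusted p = 0.0312). The call was lost without Cre control replicate 1, 2 or 3 (adjusted p = 0.146, 0.0678 and 0.123) and without Hhex KO replicate 3 (0.0760), with the same direction throughout.

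The other J proteins of the ER were not called. Dnajb11 (ERdj3) was at 161, 173 and 148 CPM in Cre control and 138, 168, 164 and 121 CPM in Hhex KO (log2 fold change -0.12 ± 0.14, adjusted p = 0.742). Dnajc3 (p58IPK), an inhibitor of the kinase PERK, was at 280, 276 and 291 CPM against 259, 296, 317 and 222 CPM (-0.04 ± 0.14). The difference between Dnajb9 and these genes was not tested.

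Hspa5 (BiP; ENSMUSG00000026864.13, chromosome 2, 34771970 to 34777547), the ER Hsp70 and main sensor-binding chaperone of the UPR, was at 868, 715 and 683 CPM in Cre control and 679, 881, 828 and 447 CPM in Hhex KO. Replicate 4 was the lowest of all 7 libraries, with a log2 fold change between the groups of -0.09 ± 0.23 (adjusted p = 0.899). Hsp90b1 (GRP94; chromosome 10, 86690209 to 86705509), the ER Hsp90 that folds integrins and Toll-like receptors, was at 669, 636 and 592 CPM against 627, 708, 640 and 515 CPM (-0.02 ± 0.14, adjusted p = 0.964). The signs of Hspa5 and Hsp90b1 turned when Cre control replicate 1 or Hhex KO replicate 4 was left out.

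Lectin chaperones and disulfide isomerases, which fold glycoproteins and form disulfide bonds, were again highest in Hhex KO replicate 2 and lowest in replicate 4. Canx (calnexin) was at 407, 467 and 404 CPM in Cre control and 407, 618, 597 and 292 CPM in Hhex KO (log2 fold change 0.17 ± 0.25, adjusted p = 0.812). Pdia4 was at 169, 185 and 165 CPM against 170, 239, 239 and 132 CPM (0.17 ± 0.21, adjusted p = 0.754). Calr (calreticulin), Pdia3 (the partner of both lectins in glycoprotein folding and of MHC class I assembly) and Pdia6 had values of 0.05, -0.01 and -0.04. In all 10 ER genes replicate 4 was the lowest of the 7 libraries.

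Hspa5 and Dnajb9 are set side by side because both are UPR targets of the same compartment and 1 of them fell. The motif is the ER stress response element, spelled out below. It was not found in Dnajb9, nor in Dnajb11, Pdia3 and Pdia4, which were not called (log2 fold changes -0.12, -0.01 and 0.17). Whether its absence has a part in the fall of Dnajb9 was not tested. The 250 bases before each RefSeq start (GRCm38.p6, chr2:34771840-34772089, plus strand, and chr12:44210069-44210318, minus strand, 5′ to 3′) show in capitals the letters of the ER stress response element (CCAAT, then 9 bases of any kind, then CCACG), found at -65 to -47 in Hspa5 and not found in Dnajb9:
Hspa5: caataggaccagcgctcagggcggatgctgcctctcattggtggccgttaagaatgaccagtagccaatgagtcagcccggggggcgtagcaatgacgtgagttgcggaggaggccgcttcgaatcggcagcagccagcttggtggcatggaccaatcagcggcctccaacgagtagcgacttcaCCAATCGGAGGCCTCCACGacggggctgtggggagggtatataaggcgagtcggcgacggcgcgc
Dnajb9: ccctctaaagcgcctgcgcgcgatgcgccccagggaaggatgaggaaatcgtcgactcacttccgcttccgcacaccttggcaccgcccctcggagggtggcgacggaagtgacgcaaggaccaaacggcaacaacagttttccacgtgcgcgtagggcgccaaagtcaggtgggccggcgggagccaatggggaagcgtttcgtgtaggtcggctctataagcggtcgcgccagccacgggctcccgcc

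RefSeq promoter windows were matched for 38 of the 45 genes, and each motif was searched on both strands of the 250 bases before the start. Hspa8, Hsp90aa1, Hsp90ab1, Cct4, Dnajc2, Hsf1 and Hspa9 had no matched window and were not searched. The ER stress response element occurred in 6 of the 10 ER genes (Calr, Canx, Dnajc3, Hsp90b1, Hspa5 and Pdia6), in 0 of the other 28 and in 0.130% of all 27025 genes. The 3-unit heat shock element (TTC, GAA and TTC, or GAA, TTC and GAA, with 2 bases of any kind between units) occurred in Dnajb6, Hspd1 and Hspe1, and in 0.514% of all genes. All letters of the units had to match, so an element with an imperfect unit was not counted. The 2-unit form (TTC and GAA, or GAA and TTC, 2 bases apart), which lies within the 3-unit form, occurred in 9 of 24 cytosolic, 2 of 4 mitochondrial and 0 of 10 ER genes, and in 14.5% of all genes. Among its carriers, Hsph1 (1.35) and Dnajb4 (-0.69) had the highest and the lowest log2 fold change. A match of letters is a description of the sequence and not evidence of a bound factor.

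Read by class, replicates 2 and 3 were the highest and replicate 4 the lowest of the Hhex KO libraries for most classes. The median of log2 CPM over the Cre control mean for the 8 cytosolic Hsp70, Hsp110 and Hsp90 genes was 0.23, 0.89, 0.40 and -0.37 in Hhex KO replicates 1 to 4. For TRiC it was -0.01, 0.60, 0.53 and -0.08, for the mitochondrial genes 0.03, 0.50, 0.51 and -0.20, and for the 5 ER lectins and isomerases -0.17, 0.42, 0.35 and -0.53. For the 5 Hsp70, Hsp90 and J protein genes of the ER the median was -0.15, 0.07, 0.03 and -0.41, with replicates 2 and 3 near 0. Other classes had another order of medians. The 4 cytosolic Hsp70 genes taken alone had medians of 0.74, 0.96, -0.08 and -0.62. Hspa1a and Hspa1b, with few counts, weigh on that median, which was 0.00, 0.26 and -0.37 in Cre control replicates 1 to 3. The summed level of the Hsp70 class, mostly Hspa8, was 1011, 2092, 1587 and 783 CPM in Hhex KO replicates 1 to 4. The 7 J proteins had medians of -0.07, 0.07, -0.08 and -0.47, and the 2 HSF genes 0.17, -0.30, -0.18 and 0.03. No Cre control library was beyond -0.16 or 0.15 in the first 4 of these classes, and over all genes tested the median stayed between -0.02 and 0.01 in every library. Summed over the 30 cytosolic members, the level was 5306 to 5797 CPM in Cre control and 5825, 9526, 7855 and 4716 CPM in Hhex KO.

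**Figure D5:**
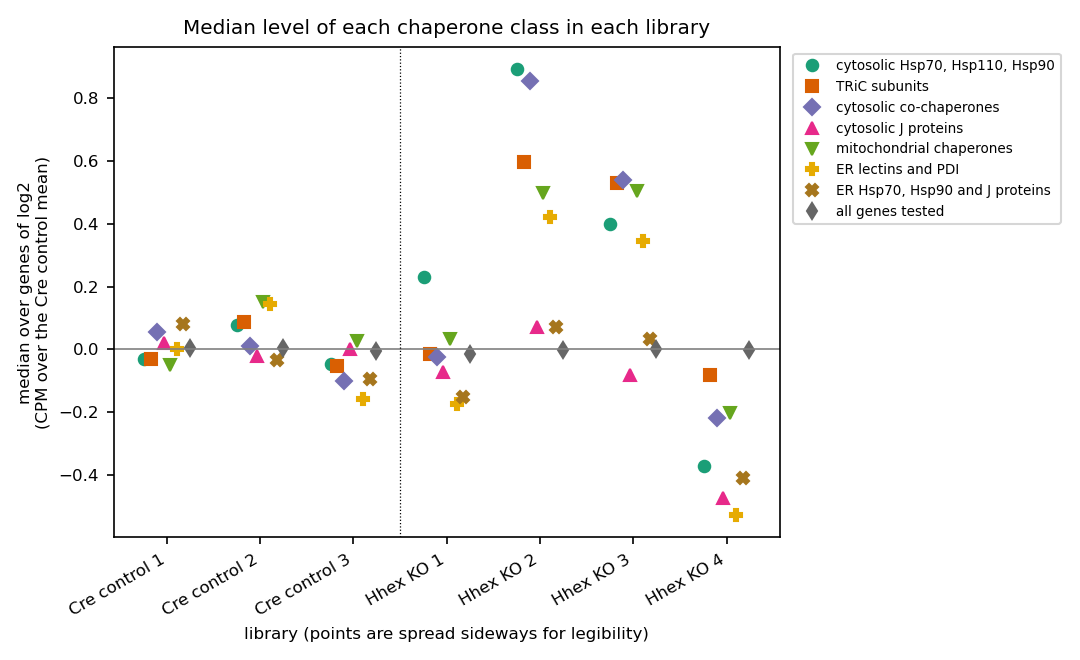
Median over the genes of each chaperone class of log2 of CPM + 0.5 over the Cre control mean + 0.5 (y axis) in each of the 7 libraries (x axis), with all genes tested as reference. The controls lie between -0.16 and 0.15, and most classes are above 0.3 in Hhex KO replicates 2 and 3 and below 0 in replicate 4. J proteins of the cytosol and the Hsp70, Hsp90 and J proteins of the ER stay near 0 in replicates 2 and 3.

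Other measures split the Hhex KO libraries the same way. Malat1, a long RNA retained in the nucleus, was at 918 and 650 CPM in replicates 1 and 4 and at 155 and 138 CPM in replicates 2 and 3, against 243 to 619 CPM in Cre control. Neat1, the nuclear RNA of paraspeckles, was at 192 and 395 CPM in replicates 1 and 4 and 43.1 and 35.3 CPM in replicates 2 and 3, against 68.7 to 179 CPM. The summed level of the 6 nuclear-retained RNAs listed was 1570, 293, 269 and 1756 CPM in Hhex KO replicates 1 to 4, and their tested members numbered 4, none called. The scaling factors were 1.04, 0.949, 0.958 and 1.07, and the sample quality weights of limma-voom 0.342, 2.00, 1.68 and 0.262. The part of these measures in the chaperone values was not tested. Without Hhex KO replicate 2 the median log2 fold change of the members was 0.06, without replicate 3 it was 0.08, and without replicate 4 it was 0.31; the number called higher stayed at 0 in each.

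Immediate early genes, which cells switch on quickly on stimulation or handling, had negative values throughout. Of 18 tested, 5 fell, 0 rose and 13 did not pass the test with edgeR, against 1.87% of all genes called lower. DESeq2 called 10 lower (3.86% of all genes) and quality weights 17 (10.9%). The median log2 fold change was -1.41. Klf6 fell by 1.47 ± 0.21 on the log2 scale, Jund fell by 1.53 ± 0.27 and Btg2 fell by 1.38 ± 0.24, with Ier5 (-1.03) and Nfkbia (-1.28) the others. Leaving out Cre control replicate 1 ended each of the 5 calls (adjusted p between 0.0506 and 0.0904), and those of Jund, Btg2 and Nfkbia also ended without Cre control replicate 3 (0.0559 to 0.0641). That of Jund was lost without Cre control replicate 2 as well (0.0511), and that of Nfkbia without Hhex KO replicate 2 or 3 (0.0588 and 0.0775). The summed level of the list was 9969 to 13887 CPM in Cre control and 5184, 5631, 2911 and 1708 CPM in Hhex KO, so that replicates 3 and 4 were the lowest. The 2 called chaperones, Dnajb4 and Dnajb9, had their lowest values in the same 2 libraries, replicates 3 and 4. This is not particular to them as to replicate 4, which was the lowest of the 7 libraries for 29 of the 45 members. Whether handling has a part in those calls was not tested.

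Among further folding genes, edgeR called Atf4 alone. Of 31 tested cytosolic chaperones outside the 45, 0 passed the edgeR test in either direction. At an unadjusted p below 0.05 there were 5 (16.1%, against 18.5% of all genes), and the median log2 fold change of the 31 was 0.00. DESeq2 called 0 higher and 3 lower (5.14% and 3.86% of all genes). Limma-voom with quality weights called 6 and 3 (12.6% and 10.9% of all genes). The small heat shock gene Hspb1 was at 0 counts in every library. Of 14 prefoldin and tubulin cofactor genes and of 17 mitochondrial chaperones and proteases, 0 passed with edgeR, DESeq2 or quality weights (0 and 1 at an unadjusted p below 0.05 with edgeR), with medians of 0.05 and 0.03. Of 38 tested ER folding and UPR genes, 1 fell (2.63%, against 1.87% of all genes) and 0 rose with edgeR (median 0.04). DESeq2 called 1 lower and 1 higher, and quality weights 3 and 3, against the same shares of all genes as above. The lower gene was Atf4, the translation-controlled factor downstream of PERK, at 348, 247 and 266 CPM in Cre control and 194, 133, 120 and 166 CPM in Hhex KO (log2 fold change -0.90 ± 0.19, adjusted p = 0.0351); the groups did not overlap. Its call was lost without Cre control replicate 1, 2 or 3 (adjusted p = 0.173, 0.0695 and 0.120) and without Hhex KO replicate 2 or 3 (0.0765 and 0.0756). Xbp1, the factor downstream of IRE1, was at 77.5 to 93.7 CPM against 83.9 to 118 CPM (0.19 ± 0.16, adjusted p = 0.603). Ddit3 (CHOP), a target of ATF4, was at 16.5 to 29.5 CPM against 16.2 to 36.9 CPM, and Hyou1, an ER Hsp110, had a log2 fold change of 0.08 ± 0.22. Of 14 proliferation genes 5 rose with edgeR, Ccnb1, Ccnb2, Cdk1, Birc5 and Tk1, against 2.68% of all genes, with a list median of 1.64. DESeq2 called 9 of the 14 higher (5.14% of all genes) and limma-voom with quality weights 14 (12.6%). Their summed level was 445 to 700 CPM in the controls and 1255, 1345, 1432 and 653 CPM in Hhex KO, with replicate 4 the lowest of the Hhex KO libraries. Without Cre control replicate 3 or, for all but Tk1, replicate 1 these calls were lost, and that of Ccnb2 was kept among such fits without Hhex KO replicate 4 alone. The part of cycling cells in the chaperone levels was not tested.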

How the data were processed

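Raw read counts per gene were deposited by the authors, with 1 column for each of the 7 libraries and no normalization. STAR, featureCounts and mm10 are named in the submitters' processing notes; the sources used here give no versions, annotation release or strand setting. Per the labels' protocols, libraries came from a directional kit with single-end reads of 75 bases. Columns were matched to samples by the description label, 0 other columns were left unused, and 99.8% of gene identifiers matched a name without their version. Coordinates are GENCODE M21 on GRCm38 (mm10), 1-based.

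Genes were kept by edgeR's expression filter (minimum count 10, minimum total 15), scaled by TMM and tested over all 12161 genes with edgeR 4.0.16 in R 4.3.3 (robust quasi-likelihood F test, no covariate, called below an adjusted p of 0.05). SE is the size of the log2 fold change over the square root of F, and CPM use the scaled library. DESeq2 1.42.0 and limma 3.58.1 were alternatives, and the procedure was tested on simulated data. Total counts limit precision to counting error at low counts; the spread between libraries was larger, at a chi-square per degree of freedom of 10.4 and above within groups. The smallest p of an exact permutation test of these groups is 0.0286. The 45 genes, the lists and the tests were chosen with earlier results of these data known. Values in every library are given for called members, the 4 smallest p of each compartment, 11 fixed genes, and further members named after their values were seen. Shared 75-base windows were counted in GENCODE M21 transcripts.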

Additional observations from a re-analysis of the deposited data

Results flagged for a closer look

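For the 45 chaperones and 22 further genes given with values in the text, the 4 Hhex KO libraries were checked for a library standing apart from the other 3. Of these 67 genes 2 were marked, and chance marks about 5% of such groups; 0 of the 45 chaperones were. For Trbc2, a T cell receptor constant gene called higher in Hhex KO (log2 fold change 0.54, edgeR adjusted p = 0.0412), replicate 3 stood apart at 175 CPM, with the other 3 at 137 to 144 CPM. For Ddit3 (CHOP), which did not pass the test, replicate 4 stood apart at 36.9 CPM, with the other 3 at 16.2 to 19.4 CPM.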

How the results depend on the processing

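The chaperone counts were 0 higher and 2 lower. The lower count kept Dnajb4 and Dnajb9 under RLE and upper-quartile scaling, no filter, a filter at 10 CPM in 3 or more libraries, DESeq2, limma-voom (also with sample quality weights), and the replicate block; leaving out 1 library gave 0 to 2. The higher count was 1 with DESeq2 (Trap1) and 17 with limma-voom and sample quality weights, and 0 without any single library. Over all genes, 326 rose and 228 fell; DESeq2 gave 625 and 469, the quality weights 1534 and 1325, the replicate block 499 higher (275 lower), the stricter filter 186 higher (183 lower), and leaving out 1 library 91 to 527 higher and 50 to 291 lower. The causes were not tested. Log2 fold changes were recomputed for the 34 genes named by rule. With the replicate block 13 immediate early genes were lower and 12 proliferation genes higher. The labels do not state whether the replicate numbers shared by the groups pair the samples. The correlations of same-numbered deviations from the group means were 0.331, 0.527 and -0.149. That of Hhex KO replicate 1 with Cre control replicate 3 was 0.347. Deviations from a shared mean depend on each other, so these correlations cannot decide on pairing. The log2 fold changes of Hsf1, Hspa5, Hsp90b1 and Dnajb11, all near 0 and not called, turned sign: with sample quality weights to -0.063, 0.123, 0.074 and 0.0055, with the replicate block to -0.011, 0.072 and 0.055 for the first 3, and with 1 library left out between -0.064 and 0.102 for Hsf1, -0.21 and 0.071 for Hspa5 and -0.089 and 0.055 for Hsp90b1. Summing Hspa1a and Hspa1b gave a log2 fold change of 0.66. Reads shared with copies limit Hspa1a, Hspa1b, Hspa8, Hsp90aa1 and Hspd1. To a lesser degree they limit Dnajb6, Hspe1 and Dnaja1, with 16.2%, 11.9% and 10.4% of 75-base windows also found in other genes.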
